A study of Mus musculus with 4 samples.

Results

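Beta-adrenergic signalling through cyclic AMP (cAMP) was followed in brown adipose tissue of mice with and without Ebf2. The 9 genes described are the receptor genes Adrb1 and Adrb3, the G protein gene Gnas, the adenylyl cyclase gene Adcy3, the protein kinase A (PKA) genes Prkaca and Prkar2b, the phosphodiesterase genes Pde3b and Pde4d, and the anchoring protein gene Akap1. They were chosen by symbol, and all 9 were found among the 12165 genes of the authors' table. Brown adipose tissue was taken from mice aged 8 weeks, of a mixed strain, that were wild type (WT, 2 libraries) or knockouts of Ebf2 (Ebf2 KO, 2 libraries). All mice were held at room temperature on chow, and polyadenylated RNA was sequenced. EBF2 is a transcription factor of brown fat cells and of the cells that give rise to them. The labels do not say which part of the gene was removed, in which cells, or whether tissue of several mice was pooled. They also do not say that the replicates are separate animals, so the p-values measure the spread between these libraries.

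In brown fat, noradrenaline from sympathetic nerves binds beta-adrenergic receptors on the fat cell. The stimulatory G protein then activates adenylyl cyclase, which makes cAMP. The second messenger releases the catalytic subunits of PKA from their regulatory subunits, and PKA switches on lipolysis and heat production and raises the transcription of thermogenic genes. Phosphodiesterases break cAMP down, and anchoring proteins hold PKA at particular places in the cell.

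Expression was given as RPKM, reads scaled by gene length and library total, so levels of different genes can be compared. The library totals behind these values were 162782640 to 199678916 reads. At least 42.5% and 44.7% of the reads lay in listed genes in the WT libraries, against at least 58.0% and 60.6% in those of Ebf2 KO. That shift in the share moves with every comparison of RPKM, and on the log2(RPKM + 1) scale the median gene was 0.45 higher in Ebf2 KO. Tests were therefore read on the libraries as deposited and again with each library centred on its median. Ebf2 itself was at 2.97 and 2.63 RPKM in WT and at 0.391 and 0.352 in Ebf2 KO (limma adjusted p = 0.00536). Ebf2 KO replicate 2 stood apart in Xist, an RNA made from the inactive X chromosome of females, at 0.0353 RPKM against 5.05 to 6.19 in the other libraries, and calls that change without it are given below. The 6 brown fat cell markers (such as Ucp1 and Cidea) summed to 7879 and 9079 RPKM in WT and to 131 and 98.0 in Ebf2 KO. The 8 general fat cell markers, such as Adipoq and Plin1, summed to 3576 and 3000 RPKM in WT and to 15525 and 11508 in Ebf2 KO. Most of that rise lay in Cfd and Adipoq, with means of 934 and 639 RPKM in WT and 8307 and 2322 in Ebf2 KO. Plin1 overlapped between the groups, and Pnpla2 was lower in both Ebf2 KO libraries (mean 396 RPKM, against 481 in WT).

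Promoter sequence of the genes is shown first, because RNA of 4 of the 9 fell together in Ebf2 KO. RefSeq (GRCm38.p6) gave 15 windows, from 250 bases before to 50 bases after an annotated start, for 7 of the 9 genes. Both strands were searched for the full cAMP response element TGACGTCA and its shorter form TGACG, which the full element contains, and for the full EBF palindrome and its core CCCNNGGG, which the palindrome contains. The full forms were in none of the 15 windows, and in 1.79% and 0.904% of all 32851 windows. Several of the 15 windows overlap. The EBF core was in 6 windows of 5 genes, against 13.7% of all windows. The short cAMP element was in 5 windows of 3 genes, against 20.8% of all windows. The fixed letters of the core are G and C. These letters made up 51.3% to 81.7% of each of the 15 windows except that of Pde4d (39.7%), against a median of 52.7% over all windows. Windows of like G and C content were not compared, so the shares do not show an excess. A match is a description of letters, not of binding. Below are windows of Adrb1 and Adcy3, the receptor and the cyclase that fell, of Akap1, which was lower in both Ebf2 KO libraries, and of Prkaca, whose difference did not pass the test. They read 5′ to 3′ on the gene's strand, with the EBF core and the short cAMP element (or its reverse complement) in capitals.
Adrb1, chr19:56721867-56722166, plus strand: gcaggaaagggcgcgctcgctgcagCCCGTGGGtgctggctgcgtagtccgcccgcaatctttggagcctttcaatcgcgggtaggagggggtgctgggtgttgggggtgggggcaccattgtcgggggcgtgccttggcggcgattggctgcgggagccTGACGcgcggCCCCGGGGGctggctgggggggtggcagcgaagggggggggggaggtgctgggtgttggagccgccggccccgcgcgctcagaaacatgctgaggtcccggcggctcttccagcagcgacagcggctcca
Adcy3, chr12:4133147-4133446, plus strand: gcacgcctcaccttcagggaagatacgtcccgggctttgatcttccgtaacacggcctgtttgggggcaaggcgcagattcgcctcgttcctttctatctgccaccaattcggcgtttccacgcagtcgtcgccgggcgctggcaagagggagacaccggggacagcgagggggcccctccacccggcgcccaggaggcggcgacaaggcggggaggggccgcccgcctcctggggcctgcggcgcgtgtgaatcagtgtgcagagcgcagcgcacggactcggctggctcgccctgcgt
Akap1, chr11:88851454-88851753, minus strand: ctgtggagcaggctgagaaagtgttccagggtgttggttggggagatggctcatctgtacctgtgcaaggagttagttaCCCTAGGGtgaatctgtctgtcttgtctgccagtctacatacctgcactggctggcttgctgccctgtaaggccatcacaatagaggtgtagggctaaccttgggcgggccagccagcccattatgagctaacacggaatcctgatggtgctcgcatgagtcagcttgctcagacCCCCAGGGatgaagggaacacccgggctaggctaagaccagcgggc
Prkaca, chr8:83972728-83973027, plus strand: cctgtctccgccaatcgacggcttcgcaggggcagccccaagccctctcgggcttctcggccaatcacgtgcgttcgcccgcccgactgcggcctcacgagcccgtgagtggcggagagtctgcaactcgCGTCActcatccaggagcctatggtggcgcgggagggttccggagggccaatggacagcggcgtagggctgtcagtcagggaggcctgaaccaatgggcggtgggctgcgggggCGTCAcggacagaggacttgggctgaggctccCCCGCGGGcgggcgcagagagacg
Counted from the start, the Adrb1 window had 3 matches to the EBF core, at -225, -80 and -79, of which the last pair overlap, and a short cAMP element at -90. G and C made up 72.3% of this window, against a median of 52.7% over all windows. The Akap1 window had 2 core matches, and the Prkaca window had 1 core match and 2 short cAMP elements. Of the windows not shown, the Akap1 window from 88851463 overlaps the one above and holds the same matches. The Akap1 window from 88864537 and the Prkaca window from 83976633 held no match to either. No match was found in the Adcy3 window, although Adcy3 had the largest decrease of the 9 genes. Genes that fell and a gene that did not pass the test thus both held the letters searched for.

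Over the 9 genes, 4 fell and 1 rose in Ebf2 KO by limma on log2(RPKM + 1) at an adjusted p under 0.05, and 4 did not pass. Over all genes, 3.54% fell and 24.4% rose by the same rule. After centring, 5 fell and 0 rose by limma, against 10.3% and 8.42% of all genes, and 1 was higher at an unadjusted p under 0.05. By limma-voom on recovered reads 5 fell and 0 rose likewise, against 8.4% and 7.94%, with 1 higher at an unadjusted p under 0.05. Going by an edgeR FDR under 0.05 in the table the authors deposited, 5 fell and 0 rose, against 10.5% and 10.9%. The median log2 difference of the 9 genes was -0.60 as deposited and -1.12 after centring, beside medians of 0.45 and -0.07 over all genes. In 5 of the 9 genes both Ebf2 KO values lay below both WT values, in 3 both lay above, and in 1 the groups overlapped. Of all genes, 9.3% had both Ebf2 KO values below and 65.4% both above. With 1 library left out some calls were lost, as given for each gene below. The median of the 9 genes was then -0.67 to -0.52 as deposited, beside 0.35 to 0.57 over all genes. Centred, it was -1.22 to -1.02, beside -0.13 to -0.0017.

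**Figure D1:**
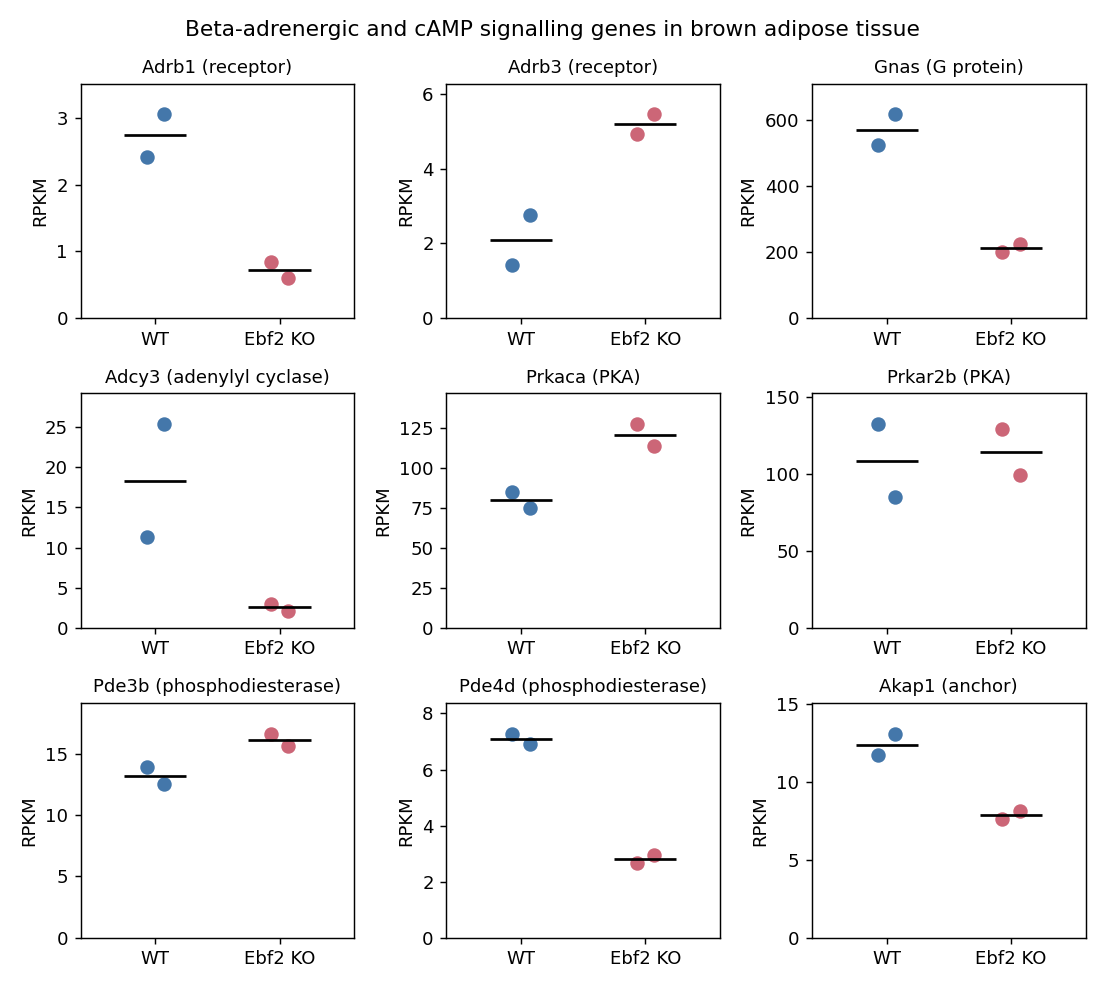
RPKM of each of the 9 genes (y axis, from 0) in the 2 WT and 2 Ebf2 KO libraries, 1 point per library (replicate 1 on the left of each pair), with a bar at the mean. Adrb1, Gnas, Adcy3, Pde4d and Akap1 are lower in both Ebf2 KO libraries, Adrb3, Prkaca and Pde3b are higher in both, and the groups overlap for Prkar2b.

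Adrb1 and Adrb3 encode the beta-1 and beta-3 adrenergic receptors, of which the beta-3 form is found mainly in fat cells. Adrb1 was at 2.43 and 3.06 RPKM in WT and at 0.846 and 0.604 in Ebf2 KO. Both Ebf2 KO libraries were low, and the mean of 0.725 ± 0.171 RPKM was 3.79-fold below the WT mean of 2.74 ± 0.450 (SD, n = 2 each). Adrb1 fell by 1.12 on the log2(RPKM + 1) scale (SE 0.231, limma adjusted p = 0.0156) and by 1.64 after centring (adjusted p = 0.000525). The call was lost as deposited without Ebf2 KO replicate 2 (0.135) but held after centring without any 1 library. In bulk tissue, fewer cells of a type and less RNA per cell cannot be told apart, here and in every result that follows. Counting error was small, at 6.39% for the 245 reads of Adrb1 in Ebf2 KO replicate 2, the lowest read number of the 9 genes in any library.

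Adrb3 was at 1.41 and 2.75 RPKM in WT and at 4.93 and 5.46 in Ebf2 KO. Both Ebf2 KO libraries were high, the mean being 2.50 times that of WT (2.08 ± 0.942 against 5.19 ± 0.373 RPKM, SD, n = 2 each). Adrb3 rose by 1.04 on the log2(RPKM + 1) scale as deposited (SE 0.293, limma adjusted p = 0.0366). The call ended after centring, where the difference was 0.52 (adjusted p = 0.0987), and was not made by edgeR in the authors' deposited table (FDR 0.140 at a log2 fold change of 0.72). As deposited, it was also lost without WT replicate 1 (0.122), Ebf2 KO replicate 1 (0.0856) or Ebf2 KO replicate 2 (0.187). Of the 8 general fat cell markers, 5 were higher as deposited and 1 after centring, where 24.4% and 8.42% of all genes rose. Plin1 overlapped between the groups, and Pnpla2 was lower in both Ebf2 KO libraries. In the authors' deposited table Pnpla2 had a log2 fold change of -0.92 (edgeR FDR 0.0465). The median log2 difference of the 8 was 1.03 as deposited and 0.50 after centring (0.36 to 0.64 with 1 library left out). The part of these markers in the Adrb3 difference was not tested. A gene model on the other strand, Gm45470, shares 839 exon bases with Adrb3 in the GENCODE M21 annotation, and with the strand setting not given its reads cannot be told apart from those of Adrb3.

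The balance between the receptors does not depend on how libraries are scaled. The Adrb3 to Adrb1 ratio of RPKM was 0.583 and 0.897 in WT and 5.83 and 9.03 in Ebf2 KO. Adrb1 thus made up the larger share of the pair in both WT libraries (63.2% and 52.7%) and the smaller in both Ebf2 KO libraries (14.6% and 9.97%). The ratio was 10.04 times higher in Ebf2 KO, a log2 difference of 3.33 with a pooled replicate SD of 0.443. An exact permutation test of 2 against 2 libraries gave p = 0.333 (2-sided), the smallest this design allows, so the ratio is a description. The summed level of Adrb1 and Adrb3 was 3.84 and 5.81 RPKM in WT and 5.78 and 6.06 in Ebf2 KO, with overlapping groups.

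Gnas encodes the alpha subunit of the stimulatory G protein, which couples these receptors to adenylyl cyclase. Its RPKM was 523.4 and 617.6 in WT and 198.6 and 224.7 in Ebf2 KO. Both Ebf2 KO libraries were low, their mean of 211.7 ± 18.5 RPKM being 2.70-fold below that of WT, 570.5 ± 66.7 (SD, n = 2 each). Gnas fell by 1.42 on the log2(RPKM + 1) scale (SE 0.235, limma adjusted p = 0.00807) and by 1.95 after centring (adjusted p = 0.00728). Without Ebf2 KO replicate 1 or 2 the adjusted p was 0.0507 and 0.0524 as deposited, and 0.0852 and 0.111 after centring. Gnas lies in an imprinted locus with several starts, and the antisense genes Nespas and Gm20721 share 988 and 1469 of its exon bases in GENCODE M21. The value is a sum over its transcripts, and antisense reads cannot be told apart from it here.

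Gnas was the most abundant of 6 measured G protein alpha subunit genes in every library. Its share of their summed RPKM was 87.1% and 82.8% in WT and 58.7% and 56.1% in Ebf2 KO. Gnai2, which encodes an inhibitory alpha subunit, went from 10.6% and 15.3% to 32.1% and 32.6% of the sum. Its own RPKM overlapped between the groups, at 63.9 and 114.0 in WT and 108.7 and 130.7 in Ebf2 KO (limma adjusted p = 0.230). Gnai1, another inhibitory subunit gene, was at 6.38 and 6.27 RPKM in WT and at 18.7 and 28.6 in Ebf2 KO. It rose 3.74-fold (limma adjusted p = 0.00590, then 0.00929 on the centred scale), and the centred call was lost without WT replicate 2 (0.0562) or Ebf2 KO replicate 2 (0.0583). Families for these shares were chosen after values were seen, and the shares carry no test.

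Adcy3 encodes a membrane adenylyl cyclase of fat and other tissues. It was at 11.3 and 25.4 RPKM in WT and at 3.03 and 2.14 in Ebf2 KO. The WT libraries differed from each other by more than the Ebf2 KO libraries did, yet both were above both Ebf2 KO libraries. The means were 18.4 ± 9.96 RPKM in WT and 2.58 ± 0.627 in Ebf2 KO (SD, n = 2 each), a 7.10-fold decrease. On the log2(RPKM + 1) scale Adcy3 fell by 2.34 (SE 0.370, limma adjusted p = 0.00709) and by 2.87 after centring (adjusted p = 0.000239). Its call held without any 1 library on both scales, and edgeR gave -3.39 (log2 fold change, FDR 9.43e-14) in the authors' deposited table. Cenpo, a centromere protein gene on the other strand, shares 1380 exon bases with Adcy3 in GENCODE M21, or 22.1% of the exon bases of Adcy3. Cenpo was at 12.7 and 24.7 RPKM in WT and at 4.34 and 3.90 in Ebf2 KO, and it fell as well (limma adjusted p = 0.00859). Reads of the shared stretch cannot be assigned to either gene without strand.

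Among the 7 measured adenylyl cyclase genes, Adcy3 held 48.9% and 54.6% of the summed RPKM in WT and 10.8% and 6.56% in Ebf2 KO. Adcy5, another membrane cyclase gene, held 4.35% and 3.78% in WT and 24.8% and 25.5% in Ebf2 KO. It rose from a mean of 1.38 ± 0.533 RPKM in WT to 7.65 ± 0.945 in Ebf2 KO (SD, n = 2 each), or 5.54-fold (limma adjusted p = 0.00583, and 0.00142 after centring), and the call held without any 1 library. Adcy6 took the largest share in both Ebf2 KO libraries, at 42.5% and 42.8%, beside 27.0% and 24.7% in WT. Its RPKM in Ebf2 KO was 1.46 times that in WT, and the difference did not pass the test (limma adjusted p = 0.176). The summed level of the 7 genes was 23.1 and 46.5 RPKM in WT and 28.1 and 32.7 in Ebf2 KO, so the groups overlapped in the sum while the leading gene differed.

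**Figure D2:**
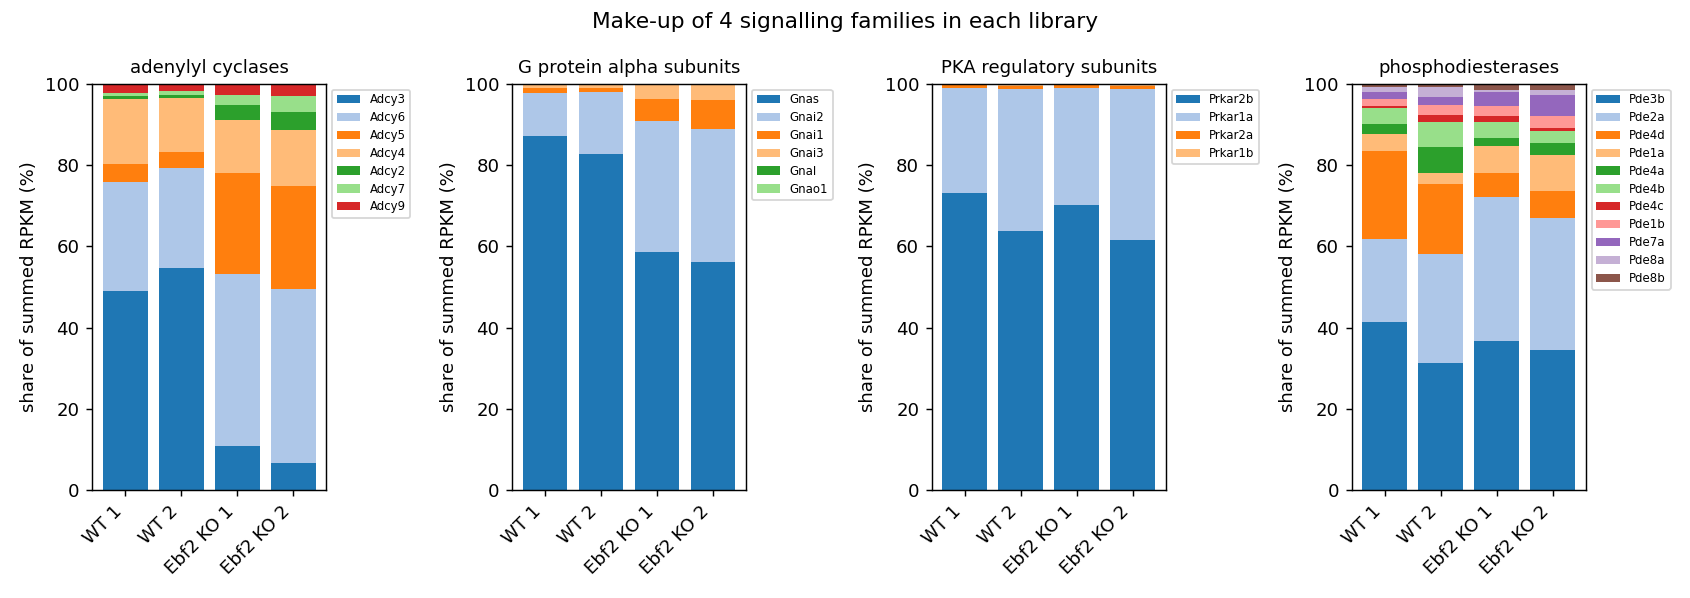
Share of each gene in the summed RPKM of its family (y axis, percent) in each of the 4 libraries (x axis), for 7 adenylyl cyclase, 6 G protein alpha subunit, 4 PKA regulatory subunit and 11 phosphodiesterase genes. Adcy3 takes 48.9% and 54.6% of the cyclase sum in WT and 10.8% and 6.56% in Ebf2 KO, whereas Prkar2b holds 61.6% to 73.2% of the regulatory subunit sum in all 4 libraries.

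Prkaca encodes the main catalytic subunit of PKA, and Prkar2b the RII beta regulatory subunit that is abundant in fat and brain. Prkaca was at 85.2 and 75.1 RPKM in WT and at 127.6 and 113.9 in Ebf2 KO. Both Ebf2 KO values were higher, but the difference of 0.59 on the log2(RPKM + 1) scale (SE 0.203) did not pass as deposited (limma adjusted p = 0.0637). It was 0.061 after centring (adjusted p = 0.924), while the authors' deposited table had it at -0.060 (edgeR FDR 0.937). Prkaca passed as deposited without WT replicate 1 (0.0320). Prkar2b was at 132.2 and 84.8 RPKM in WT and at 129.1 and 99.4 in Ebf2 KO. The groups overlapped, with a difference of 0.10 as deposited (SE 0.271, limma adjusted p = 0.790) and -0.43 after centring (SE 0.403, adjusted p = 0.505). These p-values do not show that the levels were equal.

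Within the regulatory and within the catalytic subunits, the same gene led in all 4 libraries. Prkar2b made up 73.2% and 63.8% of the summed RPKM of the 4 regulatory subunit genes in WT and 70.0% and 61.6% in Ebf2 KO, and Prkaca 94.1% to 96.9% of the catalytic pair with Prkacb in all 4 libraries. The Prkar2b to Prkaca ratio was 1.55 and 1.13 in WT and 1.01 and 0.873 in Ebf2 KO. Every Ebf2 KO ratio was below every WT ratio, with a log2 difference of -0.49 and a pooled SD of 0.253 (exact permutation p = 0.333, 2-sided, the smallest possible). Of the other 6 PKA subunit and inhibitor genes measured, 2 rose as deposited and 1 after centring. Pkia, which encodes a PKA inhibitor, rose 4.09-fold, from 0.820 and 2.64 to 4.91 and 9.23 RPKM (limma adjusted p = 0.0280, then 0.0206 on the centred scale). Its call was lost without Ebf2 KO replicate 2 (0.137 as deposited, 0.0691 after centring) and, after centring, without WT replicate 1 (0.172). Prkacb rose 2.11-fold as deposited (limma adjusted p = 0.0414), but not after centring (0.256) nor without WT replicate 1 (0.0974), Ebf2 KO replicate 1 (0.0886) or Ebf2 KO replicate 2 (0.298). Pkig, another inhibitor gene, did not pass, at 17.6 and 23.9 RPKM in WT and 28.2 and 33.6 in Ebf2 KO, except without WT replicate 2 (limma adjusted p = 0.0141).

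Pde3b and Pde4d encode cAMP phosphodiesterases, and PDE3B is known as the enzyme through which insulin restrains lipolysis in fat cells. Pde4d was at 7.27 and 6.91 RPKM in WT and at 2.65 and 2.97 in Ebf2 KO. Both Ebf2 KO libraries were low and the replicates lay close together, with means of 7.09 ± 0.253 RPKM in WT and 2.81 ± 0.222 in Ebf2 KO (SD, n = 2 each), a 2.52-fold decrease. Pde4d fell by 1.09 on the log2(RPKM + 1) scale (SE 0.239, limma adjusted p = 0.0185) and by 1.61 after centring (adjusted p = 0.00109). As deposited the call was lost without Ebf2 KO replicate 1 (0.0741) or 2 (0.0842), whereas it held after centring without any 1 library. Pde4d has many transcripts from separate starts, and its RPKM sums over them.

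Pde3b was at 13.9 and 12.5 RPKM in WT and at 16.7 and 15.7 in Ebf2 KO. Both Ebf2 KO values were slightly above both WT values. The difference was 0.27 as deposited (SE 0.204, limma adjusted p = 0.317) and -0.25 after centring (adjusted p = 0.546), so its sign turned with the scaling and it did not pass on either scale. The Pde3b to Pde4d ratio was 1.92 and 1.81 in WT and 6.28 and 5.28 in Ebf2 KO. The phosphodiesterases thus differed from each other whatever the scaling, the ratio being 3.09 times higher in Ebf2 KO (log2 difference 1.63, pooled SD 0.131, exact permutation p = 0.333, 2-sided, the smallest possible). Pde4d went from 21.6% and 17.2% of the summed RPKM of 11 phosphodiesterase genes in WT to 5.82% and 6.51% in Ebf2 KO, while Pde3b held 31.2% to 41.3% in all 4 libraries. Of the other 9 phosphodiesterase genes, 2 rose as deposited, whereas 3 fell after centring. By limma-voom 0 fell (3 at an unadjusted p under 0.05), and 1, Pde8a, fell by the FDR in the authors' deposited table and when quantiles were matched. The members that rose as deposited, Pde7a and Pde1a, were at most 4.05 RPKM in any library and did not pass after centring (limma adjusted p = 0.175 and 0.167). Pde7a passed by limma-voom (adjusted p = 0.0383) and by the authors' edgeR FDR (0.0181), but not with quantiles matched (limma adjusted p = 0.0719). Pde1a passed by none of these (0.0997, 0.0913 and 0.183). Both were also lost without Ebf2 KO replicate 2 (0.184 and 0.206), Pde7a without WT replicate 1 (0.0556) and Pde1a without Ebf2 KO replicate 1 (0.0511). The 3 that fell after centring were Pde4a, Pde4b and Pde8a (limma adjusted p = 0.0352, 0.0435 and 0.00503), named after their values were seen. As deposited their groups overlapped, and Pde8a was at most 1.03 RPKM in any library. The centred Pde8a call held without any 1 library, that of Pde4a was lost without WT replicate 2 (0.148), and that of Pde4b was lost without WT replicate 1 (0.0990), WT replicate 2 (0.170) or Ebf2 KO replicate 2 (0.369). Pde2a, the second most abundant of the family in 3 of the 4 libraries, was at 6.90 and 10.8 RPKM in WT and 16.2 and 14.9 in Ebf2 KO (limma adjusted p = 0.0557, or 0.506 when centred), and it passed as deposited without WT replicate 2 (0.00223).

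Akap1 encodes an anchoring protein that holds PKA at the outer mitochondrial membrane. It was at 11.7 and 13.1 RPKM in WT and at 7.59 and 8.10 in Ebf2 KO. Both Ebf2 KO values were low, at 63.3% of the WT mean (12.4 ± 0.970 against 7.84 ± 0.366 RPKM, SD, n = 2 each). The difference of -0.60 as deposited (SE 0.215) did not pass (limma adjusted p = 0.0702). After centring Akap1 fell by 1.12 (SE 0.222, adjusted p = 0.00714), also without any 1 library (0.0167 to 0.0479), where the authors' deposited table gave -1.30 (edgeR FDR 0.000300). Of the other 9 anchoring protein genes measured, only Akap12, a scaffold of the plasma membrane, passed as deposited. On the centred scale 0 of them passed by limma, with 1 higher at an unadjusted p under 0.05, and 0 by limma-voom. Akap12 rose 2.39-fold (limma adjusted p = 0.0123), from a mean of 6.02 ± 0.275 RPKM to 14.4 ± 0.955 (SD, n = 2 each). The call ended on the centred scale (0.101) and, as deposited, when Ebf2 KO replicate 2 was left out (0.0806). Akap8l and Akap9 did not pass (limma adjusted p = 0.0778 and 0.0848), but Akap8l did without WT replicate 2 (0.000411).

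**Figure D3:**
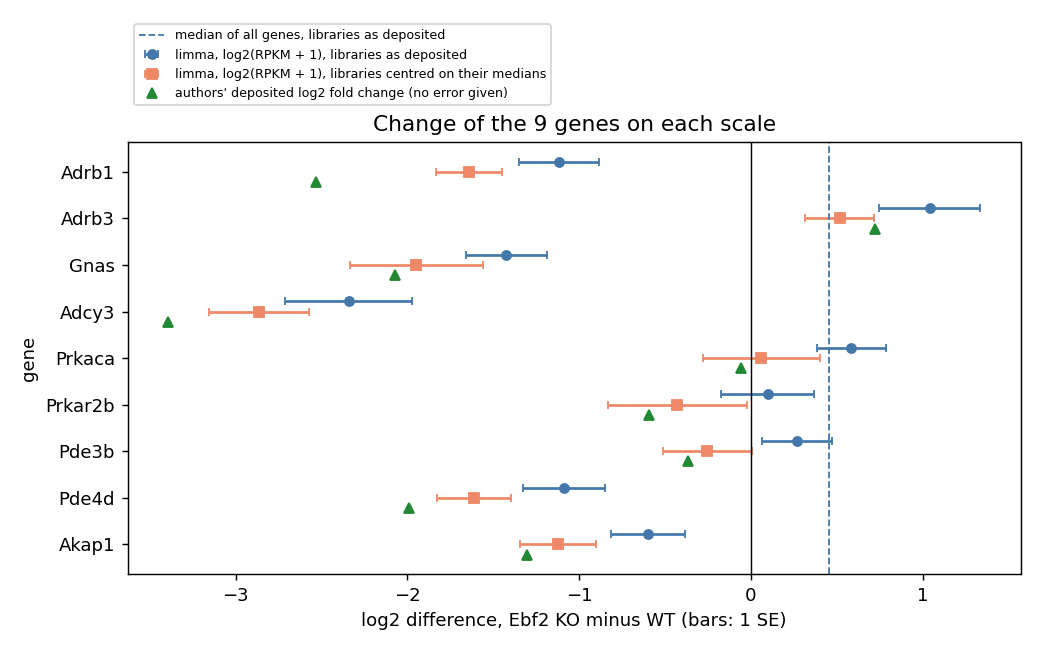
Difference of Ebf2 KO minus WT (x axis, log2) for each of the 9 genes (y axis) by limma on log2(RPKM + 1) with libraries as deposited (circles) and centred on their medians (squares), with bars of 1 SE, and as the authors' deposited log2 fold change (triangles), with a dashed line at the median of all genes as deposited (0.45). Adrb1, Gnas, Adcy3, Pde4d and Akap1 lie left of 0 on all 3 scales and Adrb3 right of 0, while Prkar2b and Pde3b change sign, and Prkaca lies at 0.59, 0.061 and -0.060.

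In order of level, Gnas came first in both genotypes, followed by the PKA genes. In WT, the ranges of Prkar2b and Prkaca overlapped, as did those of Adcy3 and Pde3b, of Pde3b and Akap1, and of Adrb1 and Adrb3 at the low end. In Ebf2 KO, Prkaca and Prkar2b overlapped, and Pde3b, Akap1 and Adrb3 followed without overlap. Adcy3 ranked 4 in WT and 8 in Ebf2 KO, where its range overlapped that of Pde4d. Adrb1 came last in Ebf2 KO, below all other members in both libraries.

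Genes of the whole table, from a mean of 5 RPKM upward, were ranked by how closely their log2(RPKM + 1) profile over the 4 libraries, with its mean removed, followed that of each member. The measure was the root mean square difference, and with 4 libraries many genes can lie close. Adding 1 to RPKM shrinks fold changes of low members more than those of higher genes, so nearness holds on this scale only. Gnas was followed most closely by Pgk1, a glycolytic enzyme gene, and Etfa, an electron transfer flavoprotein gene (0.0563 and 0.0614). Pde4d was nearest to Cox7b, a cytochrome oxidase subunit gene, at 0.0185, and Adrb1 to Apold1 at 0.0330. In RPKM the mean of Adrb1 fell 3.79-fold, while Apold1 went from 11.1 and 14.3 in WT to 5.73 and 4.76 in Ebf2 KO, a smaller change. The profile nearest to Adcy3 was farther off, that of the mitochondrial carrier gene Slc25a34 at 0.138. Adrb3 was nearest to Zfp362 (0.00535), Prkaca to Ssu72 (0.0198), Prkar2b to the transaldolase gene Taldo1 (0.0101), Pde3b to the sodium pump subunit gene Atp1b3 (0.00787) and Akap1 to Rabggtb (0.0296).

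Of the 75 other measured genes of the pathway, 15 rose and 8 fell as deposited, against 24.4% and 3.54% of all genes, and 8 rose and 19 fell after centring, against 8.42% and 10.3%. The median log2 difference of the 75 genes was 0.38 as deposited and -0.15 after centring. With Ebf2 KO replicate 2 or WT replicate 2 left out the counts changed as deposited, as did the shares of all genes. The median of the 75 genes was then 0.28 and 0.41, beside 0.36 and 0.57 over all genes. Among 8 genes of adrenergic receptors and their desensitisation, 2 fell and 1 rose as deposited, and 2 fell after centring. Adra1a, which encodes an alpha-1 receptor, was at 1.02 and 1.24 RPKM in WT and 0.196 and 0.198 in Ebf2 KO and fell 5.72-fold (limma adjusted p = 0.0151). Its call as deposited was lost without Ebf2 KO replicate 2 (0.0991). Adrbk2, a receptor kinase gene, fell 6.85-fold, from 2.40 and 3.70 to 0.442 and 0.448 RPKM (limma adjusted p = 0.00807), and held without any 1 library. Every listed gene reached 0.50 RPKM in some library, so Adra1a and Adrbk2 are listed only through WT. Arrb2, which encodes a beta-arrestin, rose 2.54-fold as deposited (limma adjusted p = 0.0329), but not after centring (0.0703) nor without WT replicate 1 (0.0773), Ebf2 KO replicate 1 (0.0577) or Ebf2 KO replicate 2 (0.161).

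Among 8 genes of other receptors that act on cAMP in fat, 5 rose as deposited, and 5 rose and 1 fell after centring. Tshr, the thyrotropin receptor gene, was at 2.56 and 1.66 RPKM in WT and at 14.7 and 19.1 in Ebf2 KO, an 8.02-fold rise of the mean (limma adjusted p = 0.00232). Hcar2 and Hcar1, which encode Gi-coupled receptors for hydroxybutyrate and lactate, rose 5.43-fold and 4.72-fold (limma adjusted p = 0.00785 and 0.00853). Each of these 3 receptors was higher in both Ebf2 KO libraries, and each call held without any 1 library on both scales. The other risers, Ptger3 and Adora1, named after their values were seen, also encode receptors that couple to inhibitory G proteins. As deposited both calls ended without Ebf2 KO replicate 2 (limma adjusted p = 0.0698 for Ptger3 and 0.0692 for Adora1). Centred, Ptger3 was lost without WT replicate 1 (0.0982) or 2 (0.187), and Adora1 without WT replicate 2 (0.0992), Ebf2 KO replicate 1 (0.0644) or Ebf2 KO replicate 2 (0.0929). The 1 that fell after centring, Adora2a, encodes a receptor that couples to the stimulatory G protein and had a mean of 11.4 ± 5.73 RPKM in WT and 6.85 ± 0.669 in Ebf2 KO (SD, n = 2 each; limma adjusted p = 0.0167 after centring, but 0.0882 without WT replicate 2 and 0.0978 without Ebf2 KO replicate 2).

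Among 11 G protein and regulator genes, 2 rose and 1 fell as deposited (1 and 4 after centring). Beside Gnao1, those that fell when centred were Rgs2, a regulator of G protein signalling, Ric8b and the stimulatory subunit gene Gnal (limma adjusted p = 0.00681, 0.0324 and 0.0348), named after their values were seen. Gnal was at 1.16 and 1.19 RPKM in WT and 0.997 and 1.01 in Ebf2 KO, a level at which centred differences lean low. It passed neither by limma-voom (adjusted p = 0.0600) nor by the authors' edgeR FDR (0.0716). Rgs2 and Ric8b passed by limma-voom (adjusted p = 0.0139 and 0.0407) and by that FDR (0.000401 and 0.00744). The centred calls of Rgs2, Ric8b and Gnal were all lost without WT replicate 1, that of Ric8b also without Ebf2 KO replicate 1 and that of Gnal without Ebf2 KO replicate 2. Beside Gnai1, the inhibitory subunit gene Gnai3 rose 2.51-fold as deposited (limma adjusted p = 0.0162), but not after centring (0.0646) nor without Ebf2 KO replicate 2 (0.121). Gnao1, which encodes an alpha subunit best known from brain, fell 3.75-fold (limma adjusted p = 0.0219), its mean being 1.38 ± 0.176 RPKM in WT and 0.367 ± 0.0874 in Ebf2 KO (SD, n = 2 each). As deposited its call was lost without Ebf2 KO replicate 1 (0.101) or 2 (0.112). Of the 6 cyclase genes other than Adcy3, 2 rose as deposited, and 1 rose and 1 fell after centring. Adcy2 was the other riser as deposited, at most 1.48 RPKM in any library (limma adjusted p = 0.0206). In WT it was at 0.176 and 0.364 RPKM, below the 0.50 RPKM that every listed gene reached in some library. Adcy2 is thus listed only through Ebf2 KO, and the direction of its calls goes with that entry. Adcy2 also passed by limma-voom (adjusted p = 0.0251), with quantiles matched (limma adjusted p = 0.0376) and by the authors' edgeR FDR (0.00984). Its call ended when centred (limma adjusted p = 0.195) or when Ebf2 KO replicate 2 was left out. Adcy4 did not pass as deposited (limma adjusted p = 0.573) but fell on the centred scale (0.0306). It also passed by limma-voom (adjusted p = 0.0357) and by the authors' edgeR FDR (0.0182). The centred call of Adcy4 was lost whichever library was left out. Adcy7 did not pass (0.0697), except without WT replicate 2 (0.0220) or Ebf2 KO replicate 1 (0.0351). Rapgef3 is the measured gene of the cAMP-activated exchange factors known as Epac. It did not pass as deposited (limma adjusted p = 0.604) but fell after centring (0.0316). It also passed by limma-voom (adjusted p = 0.0424) and by the authors' edgeR FDR (0.0213), but not with quantiles matched (limma adjusted p = 0.0515). The centred call of Rapgef3 was lost whichever library was left out.

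Of 10 genes of the CREB family, its coactivators and the SIK kinases, 1 fell as deposited and 2 fell after centring. Sik1, a kinase gene that cAMP induces, was at 7.95 and 9.90 RPKM in WT and 5.32 and 3.34 in Ebf2 KO (limma adjusted p = 0.0441, or 0.00479 when centred). As deposited its call was lost without WT replicate 2 (0.0564) or Ebf2 KO replicate 2 (0.297), and after centring without WT replicate 1 (0.0590). The second to fall after centring was Atf2 (0.00921, and 0.0633 without WT replicate 1), named after its values were seen. Atf1 and Crtc3, for a CREB family member and a coactivator, did not pass (limma adjusted p = 0.0528 and 0.0576), except without WT replicate 2 (0.0486 and 0.0162). Of 7 transcripts that cAMP is known to induce in fat, 4 fell as deposited and 5 after centring. The one that fell only when centred was Nr4a1 (limma adjusted p = 0.0281, but 0.115 without WT replicate 2 and 0.0576 by limma-voom). The 4 included Ucp1, Dio2 and Ppargc1a, which fell 1049-fold, 266-fold and 20.5-fold (limma adjusted p = 7.61e-05, 0.000322 and 0.000770), each without any 1 library as well. These are also markers of brown fat cells. The other, Nr4a2, named after its values were seen, was at 2.61 and 1.09 RPKM in WT and at 0.269 and 0.296 in Ebf2 KO (limma adjusted p = 0.0261, but 0.0518 without Ebf2 KO replicate 1 and 0.0925 without Ebf2 KO replicate 2). Per1 and Fos, other cAMP-induced genes, did not pass (limma adjusted p = 0.103 and 0.107) and were at 9.31 and 8.36, and at 0.498 and 0.774 RPKM in WT, against 18.2 and 11.2, and 1.22 and 1.27 RPKM in Ebf2 KO.

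**Figure D4:**
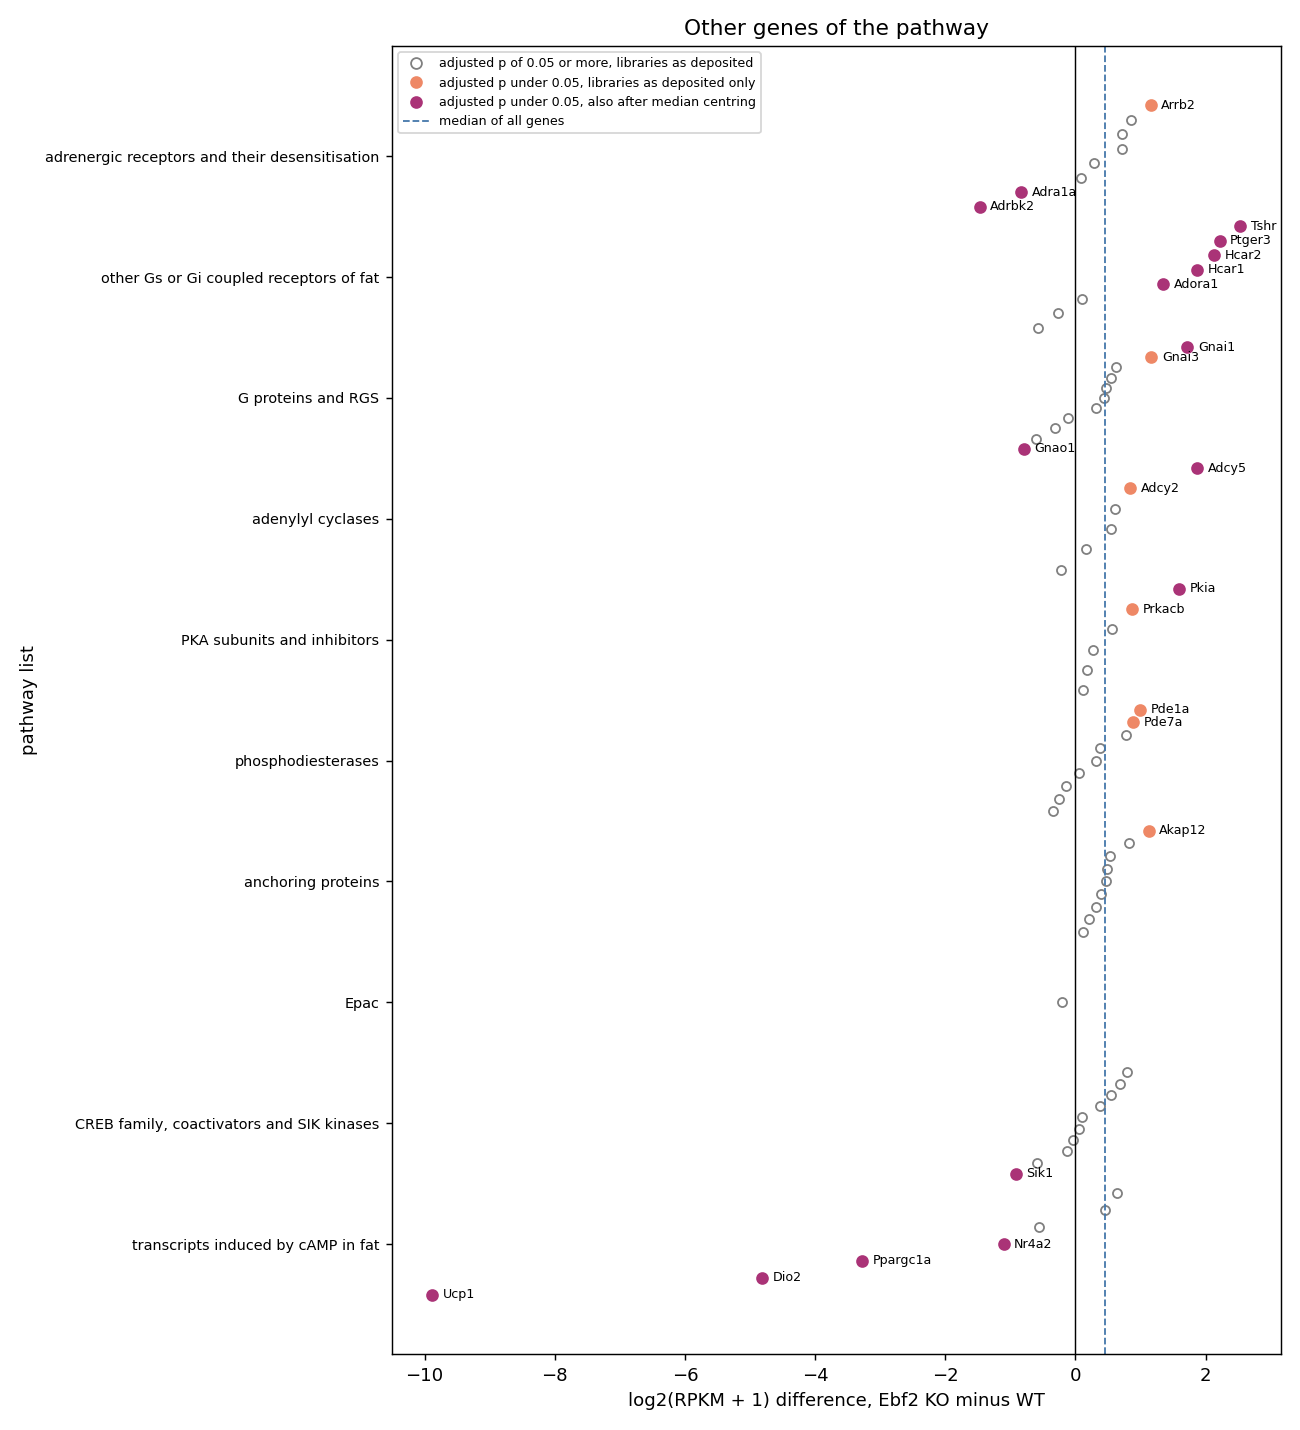
Difference of Ebf2 KO minus WT on the log2(RPKM + 1) scale (x axis) for the 75 other genes of the pathway, by list (y axis), 1 point per gene. Filled points passed limma at an adjusted p under 0.05 as deposited, dark ones also after median centring, open ones did not pass as deposited, and the dashed line marks the median of all genes at 0.45. The receptor genes Tshr, Ptger3, Hcar2, Hcar1 and Adora1 lie to the right and Ucp1, Dio2, Ppargc1a and Nr4a2 to the left.

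Markers of other cell types differed between the genotypes beside these results. All 6 brown fat cell markers fell on both scales, also without any 1 library. Of 11 skeletal muscle markers 7 rose on both scales, and their sum was 1041 and 2705 RPKM in WT and 9681 and 10594 in Ebf2 KO. The 6 fibroblast markers summed to 246.4 and 556.4 RPKM in WT and to 1341 and 2426 in Ebf2 KO, and 6 rose (5 after centring). Of 5 macrophage markers measured, 4 rose (3 after centring), with sums of 10.1 and 21.4 RPKM in WT and 38.2 and 48.1 in Ebf2 KO. Of 6 endothelial markers 0 rose and 0 fell by limma on either scale or by limma-voom, with 1 higher at an unadjusted p under 0.05 as deposited and 1 lower after centring, and with sums of 72.3 and 119.2 RPKM in WT and 106.6 and 117.7 in Ebf2 KO. Of 4 Schwann cell and nerve markers measured 2 rose and 1 fell, with sums of 26.4 and 59.4 RPKM in WT and 65.8 and 162.5 in Ebf2 KO. With 1 library left out, 7 to 11 muscle, 5 or 6 fibroblast, 1 to 5 macrophage and 0 to 3 Schwann cell and nerve markers rose as deposited, the lowest count for macrophages and nerve being without Ebf2 KO replicate 2. Centred, 3 to 10 muscle, 1 to 6 fibroblast, 0 to 3 macrophage and 0 to 2 Schwann cell and nerve markers rose, the lowest count in each being without WT replicate 1. By limma-voom 2 fibroblast markers rose. No marker measured was at 0 in any library. The part of cell type make-up in the differences of the signalling genes was not tested.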

How the data were processed

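The 4 libraries (2 per genotype) came from an Illumina TruSeq kit, per the labels' protocols. The authors' processing used STAR and edgeR with mm9, per the submitters' processing notes. Not given in the sources used here were tool versions, counter, annotation and strandedness. Values deposited by the authors were RPKM per library with genotype means, per the file headers. The same deposited table holds the authors' log2 fold change, their average log2 CPM, and a p-value with its FDR, per the file headers.

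Because the values are RPKM, limma 3.58.1 in R 4.3.3 (variance trend on, genotype as its 1 covariate) was run on log2(RPKM + 1) for all 12165 genes. The Benjamini-Hochberg adjustment covered the whole table, and calls were made below 0.05. This scale understates changes of genes around 1 RPKM or less, so fold values are ratios of mean RPKM. Centring takes the same amount from every gene, which is too much for such low genes, so their centred differences lean low in Ebf2 KO. Every listed gene reached 0.50 RPKM in some library. A gene below that in both libraries of a genotype is thus listed only through the other genotype, and its direction goes with that entry. Examples are Adcy2 and Adcy7, below it in WT, and Adra1a, Adrbk2, Gnao1 and Nr4a2, below it in Ebf2 KO. The fit was tested on simulated data. Library totals were recovered from 158 microRNA genes of known length, and all 12165 genes then came to whole reads (tolerance 1e-05 reads) at the smallest length that allows it. Read numbers are therefore lower bounds, and counting errors cover counting only.

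Members, lists and tests were chosen with earlier results of these data known. Named were the 9 members, Ebf2, from each pathway list the 3 genes of smallest p (the 2 most abundant if none passed), counts of 5 or fewer by name, and of the 3 nearest profiles of each member at least the first. Each result was recomputed with other scalings (median centring, quantiles), a floor of 1 RPKM on the mean, 0.1 as pseudocount, the replicate block, the deposited fold changes and each library left out, where a lone library is assumed to vary like the other group. Limma-voom on recovered reads, and centring combined with leaving out a library, were added after seeing the data. Sequences and their coordinates are RefSeq's (GRCm38.p6), and shared exon bases are from GENCODE M21. Coordinates on mm9 are not used here.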

Additional observations from a re-analysis of the deposited data

How the results depend on the processing

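Of the 9 signalling genes, the count higher in Ebf2 KO was 1 as deposited, against 24.4% of all genes. It was 0 after centring, quantile normalization, limma-voom and in the authors' deposited table, against 8.42%, 8.61%, 7.94% and 10.9%. The count lower was 4, against 3.54%, and 5 on each of these other scales, against 10.3%, 8.3%, 8.4% and 10.5%. As deposited, calls were lost in both directions with 1 library left out. Of the 75 other pathway genes 15 were higher, and 8 after centring, 7 after quantile normalization and 9 by limma-voom, with 5 to 25 when 1 library was left out and 7, 6, 6 and 5 (without Ebf2 KO replicate 1, WT replicate 1, WT replicate 2 and Ebf2 KO replicate 2) when centred too. The number lower was 8, and 19 after centring, 13 after quantile normalization, 14 by limma-voom and 16 in the authors' deposited table, with 4 to 10 when 1 library was left out and 11 to 19 when centred too. The cause was not tested.

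With the replicate number as a block, 2 signalling genes were higher and 5 lower, and 34 and 11 of the 75 other pathway genes. By the same fit 52% of all genes were higher and 6.13% lower. Prkaca and Akap1 passed only with the block among fits of all 4 libraries as deposited with the pseudocount of 1 (limma adjusted p = 0.0351 and 0.0216). Over genes, deviations from the group mean in WT replicate 1 and Ebf2 KO replicate 1 correlated at r = 0.348. Those of replicate 2 mirror them, so the second pair adds no further value. The labels do not say what the numbers stand for, and 2 pairs do not settle whether they pair the libraries.

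Signs turned for genes that did not pass as deposited. The log2 difference of Prkaca was -0.080 by limma-voom, -0.060 in the authors' deposited table, and -0.20 and -0.12 after centring without WT replicate 2 or Ebf2 KO replicate 1. Prkar2b was at -0.43 after centring, -0.21 after quantile normalization, -0.58 by limma-voom and -0.59 in the authors' deposited table, -0.22 to 0.41 with 1 library left out, and -0.92, -0.71 and -0.14 when centred without WT replicate 2, Ebf2 KO replicate 1 or 2. Pde3b was at -0.25 after centring, -0.24 after quantile normalization, -0.38 by limma-voom and -0.36 in the authors' deposited table. Centred without WT replicates 1 and 2 and Ebf2 KO replicates 1 and 2 it was at -0.0092, -0.50, -0.40 and -0.11. Without a library and centred, Adcy7 reached -0.038, Pkig -0.00085, and Akap9 -0.067 and -0.024. Centred differences lean low for genes around 1 RPKM or less, and by limma-voom Adcy7 was at 1.19 and Akap9 at 0.46. Pkig was at -0.084 by limma-voom and -0.059 in the authors' deposited table, and Rapgef3 at -0.54 to 0.13 with 1 library left out. Pde4a, Pde4b, Adcy4 and Nr4a1, which fell when centred, were at 0.25, 0.14, 0.097 and 0.10 as deposited without WT replicate 2.

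With 1 added to each RPKM the log2 difference of the Adrb3 to Adrb1 ratio went from 3.33 to 2.16 and that of Pde3b to Pde4d from 1.63 to 1.36. Ebf2 stayed lower and past the threshold in every alternative run. The fit of all 4 libraries on genotype has 2 residual degrees of freedom, and those with a library left out or with the block have fewer.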
